A study of Danio rerio with 32 samples.

Results

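The question addressed is whether perfluorononanoic acid (PFNA), a long-chain perfluoroalkyl acid, changed transcript levels in the zebrafish embryo eye by a different amount in constant darkness than in a light:dark cycle. The measure is an interaction, the effect of PFNA in constant darkness (DD, 24 h of dark per day) minus the effect of PFNA in the cycle (LD, 14 h of light, then 10 h of dark), on log2(FPKM + 1). A positive interaction therefore means that PFNA raised a transcript more, or lowered it less, in DD than in LD. All 16 eye libraries of the series' 32 libraries belong to the comparison, and 15 entered the fit. DD PFNA replicate 4 was left out because mitochondrial transcripts took a high share of its fragments, and it served as a check.

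The eyes were dissected from wild-type embryos that were exposed from 0.75 to 120 h post fertilization (hpf) in 0.1% DMSO. The 4 groups were DD with 12.5 µM PFNA, DD with DMSO alone (0 µM), LD with 12.5 µM PFNA and LD with DMSO alone, with 4 libraries each, so that every control carries the same solvent. The labels do not say how many embryos were pooled in a library, whether replicates came from separate clutches, or at what hour of day the eyes were taken, and p-values measure only the spread between these libraries, which may be technical. PFNA is the compound in the title and the labels; the design text instead has PFHxS, and the labels were followed.

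As background, zebrafish tissues hold clocks that light can set directly. In the clock loop, Clock and Bmal proteins activate period and cryptochrome genes, whose products repress them, and Ror and Nr1d receptors act on Bmal genes in opposite directions. A second arm runs through D-box elements, which the Tef, Dbp and Hlf factors activate and Nfil3 factors repress, and which carry much of the light-driven transcription in zebrafish. Cone photoreceptors turn light into a change of cyclic GMP, which holds open a cation channel made of Cnga3 and Cngb3 subunits. Cish and Socs proteins are induced by STAT factors and damp cytokine signalling in return.

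The 15 libraries held 8.83 to 15.7 M (mega) recovered fragments (median 11.3), and 16406 to 17116 genes reached 1 FPKM (fragments per kilobase of transcript after scaling to library size). Mitochondrially encoded genes took 4.66% to 8.03% of the fragments in these libraries and 10.0% in DD PFNA replicate 4. That library also stood apart in the sum of all its FPKM, 661973 against 421646 to 494327 in the other 15. Its lens markers summed to 6715 FPKM, against 2652 to 4185 FPKM in the other 15. Ribosomal protein genes summed to 25440 FPKM, against 10431 to 14102 FPKM, and nuclear respiratory chain genes to 5810 FPKM, against 2853 to 3852 FPKM. Cone phototransduction genes, at 16502 FPKM, lay within the range of the other 15, and collagen and cartilage genes, at 427 FPKM, lay below it. The eye label fitted its markers: rho, the rod opsin, ran from 1161 to 3593 FPKM and gnat2, the cone transducin, from 493 to 1240.2 FPKM, while opn1lw1, a red cone opsin listed as a cone marker, stayed at or under 0.750 FPKM.

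Many transcripts were called for an effect of PFNA in both light regimes, and few were called for a difference between the regimes. Of 18204 genes tested, 60 were called for the interaction (0.33%, adjusted p under 0.05), 27 in the positive direction (0.148%) and 33 in the negative direction (0.181%). PFNA itself changed 2549 genes in DD (14.0%; 1552 higher and 997 lower) and 3192 genes in LD (17.5%; 1990 higher and 1202 lower). After quantile normalization the split was 1344 higher and 1340 lower in DD and 1631 higher and 1491 lower in LD. Of the 2549 genes called in DD and the 3192 called in LD without that normalization, 1381 changed the same way in both regimes. That is 54.2% of the genes called in DD and 43.3% of those called in LD, and 12 changed in opposite directions. The median interaction over all genes was -0.01, the median standard error 0.24, and a typical 95% interval reached 0.51 to either side on the log2 scale. Without adjustment 2245 genes (12.3%) had p under 0.05. The number called depended on single libraries. It was 25 with DD PFNA replicate 4 added, and among the fits that each left out 1 of the 15 libraries it fell below 40 without DD PFNA replicate 2 (27) or 3 (37), DD DMSO replicate 2 (23) or 3 (21), LD PFNA replicate 1 (33) or 2 (20), or LD DMSO replicate 2 (13), 3 (20) or 4 (39). No gene of the 60 changed sign in any of 26 other settings, and 10 were called in all of them: esrrgb, nfil3-6, rorcb, cish, cngb3.2, wnt11r, oga, zgc_110796, si_ch211-276a17.5 and si_ch211-103a14.5.

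**Figure D1:**
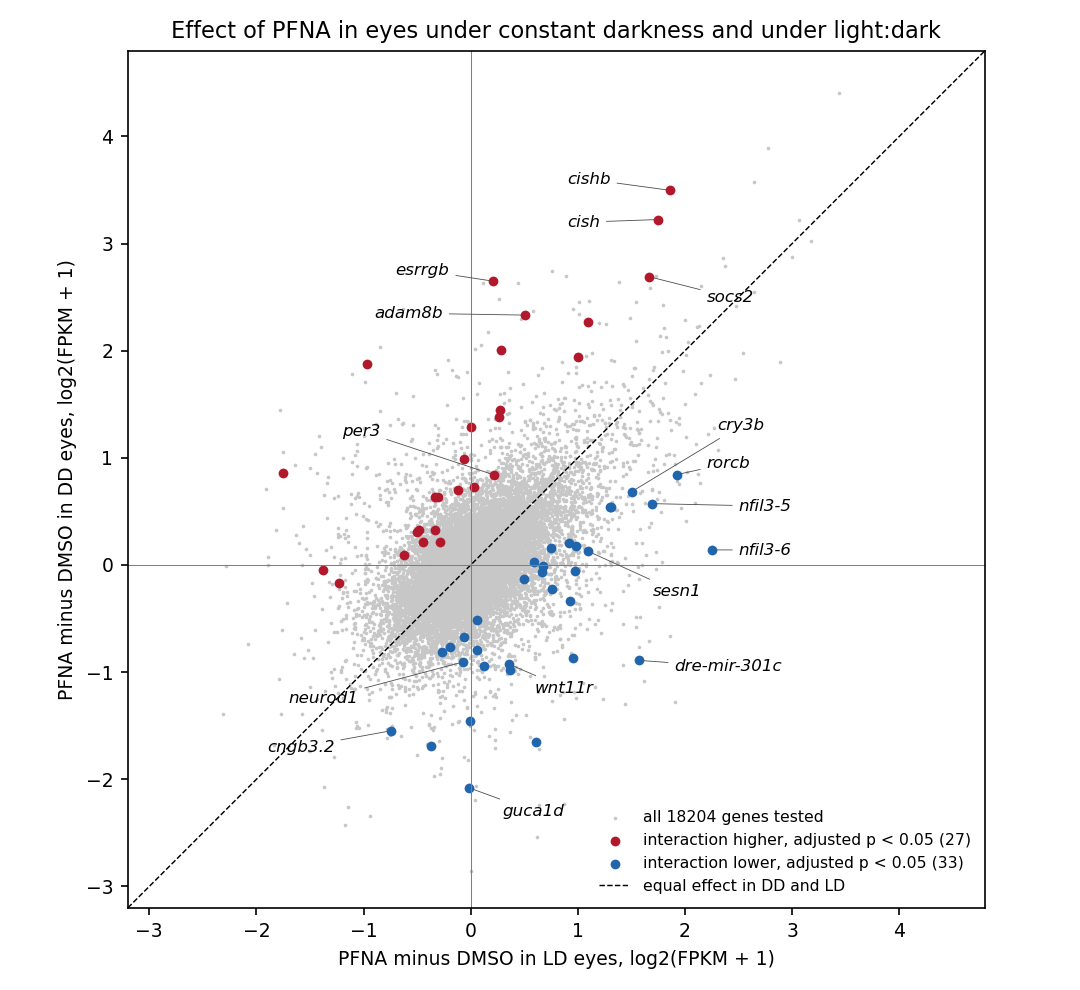
Effect of PFNA in DD eyes (vertical axis) against its effect in LD eyes (horizontal axis), both PFNA minus DMSO on log2(FPKM + 1), for the 18204 genes tested (grey points). Coloured points are the 27 genes called with a positive interaction (red, above the dashed line of equal effect) and the 33 with a negative one (blue, below it); cish and cishb lie far up because PFNA raised them in both regimes, while esrrgb and guca1d lie near the vertical axis because their LD effects were 0.21 and -0.01.

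The 60 genes fell into 8 patterns by the called effects of PFNA in each regime. In 11 genes PFNA raised the transcript in DD with no call in LD, and in 10 it lowered it in DD with no call in LD. In 13 genes it raised the transcript in LD with no call in DD, and in 7 it lowered it in LD with no call in DD. Another 6 genes rose in both regimes and more in DD, 5 rose in both and more in LD, 2 fell in both and more in DD, and 6 moved in opposite directions. Each of the 60 interactions is itself the test of the difference between the regimes. On the log2 scale 29 of them exceeded 1, and the smallest was 0.50 in size.

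The largest positive interaction among the called protein-coding genes belonged to esrrgb, an orphan nuclear receptor of the estrogen-related family, whose mammalian relatives regulate genes of mitochondrial energy metabolism (chromosome 20, 46790056 to 46817223, minus strand; positions are those of the deposited annotation, of a build not given in the sources used here). Its level was 20.03, 23.6 and 25.9 FPKM in DD PFNA eyes, against 2.84, 3.83, 2.52 and 2.298 FPKM in DD DMSO eyes. In LD it was 11.9, 20.2, 23.1 and 14.2 FPKM in LD PFNA eyes, against 15.14, 15.9, 12.05 and 14.9 FPKM in LD DMSO eyes. The 4 DD DMSO libraries stood below every other library, DD PFNA replicate 4 read 21.8 FPKM, and the LD groups overlapped. PFNA raised esrrgb by 2.65 ± 0.19 in DD (log2, ± SE, adjusted p = 1.1e-06), while its effect in LD was 0.21 ± 0.18 (adjusted p = 0.486). The interaction was 2.44 ± 0.27 (95% interval 1.87 to 3.01, adjusted p = 0.0018; 0.00113 with all 16 libraries). Among the 5 estrogen-related receptor genes tested, esrrgb was the only one called, against 0.148% of all genes called higher. At p under 0.05 unadjusted 2 were higher and 1 lower, against 5.84% and 6.49% of all genes. The other higher one, esrra, had an interaction of 0.27 ± 0.10 (adjusted p = 0.249). For esrra the effects were 0.75 in DD and 0.47 in LD, and PFNA raised it in both (adjusted p = 1e-05 and 0.0002).

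Among clock genes 4 repressors or output factors and 1 activator were called, and they did not share a direction. Of 29 tested repressors and output factors, 1 was called higher and 3 lower for the interaction, against 0.148% and 0.181% of all genes, and 7 and 9 had p under 0.05 unadjusted, against 5.84% and 6.49% of all genes. PFNA itself raised 23 of the 29 in DD (1 fell) and 23 in LD, against 8.53% and 10.9% of all genes. Their median PFNA effect was 0.75 in DD and 0.68 in LD, and the median interaction 0.05, which was -0.12 with all 16 libraries. The rise in DD rests on the DD PFNA libraries in the fit, where the listed genes summed to 3756 to 4013 FPKM. They summed to 2127 to 2672 FPKM in DD DMSO eyes. In DD PFNA replicate 4, which was left out, the sum was 2077 FPKM, below every DD DMSO library. These transcripts depend on circadian phase, and the labels do not say at what hour the eyes were taken.

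The lowest interaction among the clock genes was that of nfil3-6, a D-box repressor of the Nfil3 family (chromosome 3, 14099693 to 14103551, minus strand). It read 182, 169.8 and 208 FPKM in DD PFNA eyes, against 133, 162, 207 and 182 FPKM in DD DMSO eyes. Under the cycle it read 351, 335, 351 and 394 FPKM in LD PFNA eyes, against 52.2, 71.8, 82.7 and 96.8 FPKM in LD DMSO eyes. The DD groups overlapped, whereas every LD PFNA library lay above every other library and every LD DMSO library below the rest. The effect of PFNA was 0.14 ± 0.18 in DD (adjusted p = 0.658) and 2.26 ± 0.16 in LD (adjusted p = 6.43e-07), and the interaction was -2.11 ± 0.24 (adjusted p = 0.00197). Its paralogue nfil3-5 was also raised more in LD. In DD it read 8.73, 5.61 and 7.98 FPKM with PFNA, against 4.60, 4.28, 4.57 and 4.95 FPKM with DMSO, so that the DD PFNA libraries lay above the DD DMSO libraries by a narrow margin. In LD it read 24.7, 24.7, 28.1 and 20.7 FPKM with PFNA, against 5.29, 7.23, 6.66 and 8.64 FPKM with DMSO. The interaction of nfil3-5 was -1.12 ± 0.21 (adjusted p = 0.0414). DD PFNA replicate 4 read 2.28 FPKM. With all 16 libraries the interaction was larger, but so was its SE, at -1.46 ± 0.36, and it was not called (adjusted p = 0.141). The gene was called in 3 of the 15 fits that left out 1 library (adjusted p up to 0.0861).

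The retinoid-related orphan receptor rorcb, of the family that activates Bmal genes, rose in both regimes and by more in LD (chromosome 2, 49417900 to 49454451, plus strand). Its level was 56.0, 45.4 and 46.6 FPKM in DD PFNA eyes, against 25.4, 27.5, 27.9 and 27.1 FPKM in DD DMSO eyes. In LD it stood at 104, 114, 106 and 106 FPKM in LD PFNA eyes, against 28.4, 27.2, 24.9 and 30.4 FPKM in LD DMSO eyes. The 2 DMSO groups overlapped, and the 4 LD PFNA libraries were far above the 3 DD PFNA libraries. The PFNA effect was 0.84 ± 0.08 in DD and 1.92 ± 0.08 in LD, with an interaction of -1.08 ± 0.11 (adjusted p = 0.0018; 0.017 with all 16 libraries, where replicate 4 read 31.5 FPKM). It was the only one of 9 tested activators to be called, against 0.181% of all genes called lower. The Bmal genes arntl1a and arntl1b had interactions of -0.43 ± 0.13 and -0.50 ± 0.17 (adjusted p = 0.162 and 0.219), and clocka had -0.17 ± 0.14 (adjusted p = 0.675).

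The called cryptochrome, cry3b, had a negative interaction and the called period gene, per3, a positive one. The cryptochrome cry3b read 82.3, 90.4 and 90.5 FPKM in DD PFNA eyes, against 56.0, 55.0, 58.7 and 47.6 FPKM in DD DMSO eyes. Under LD it read 68.0, 79.9, 77.8 and 83.7 FPKM in LD PFNA eyes, against 24.2, 27.7, 27.2 and 27.3 FPKM in LD DMSO eyes. The LD DMSO libraries were the lowest of the 15, and PFNA and DMSO libraries did not overlap in either regime. PFNA raised cry3b by 0.69 ± 0.09 in DD and 1.503 ± 0.08 in LD, and the interaction was -0.82 ± 0.12 (adjusted p = 0.0106). DD PFNA replicate 4 read 36.7 FPKM, below the DD DMSO libraries. With it the interaction was larger, but so was its SE, at -1.13 ± 0.30, and it was not called (adjusted p = 0.169). In contrast, per3, a period gene of the repressing limb, read 66.1, 74.3 and 71.7 FPKM in DD PFNA eyes, against 42.0, 38.7, 42.3 and 33.5 FPKM in DD DMSO eyes. The LD values lay closer together, at 64.4, 65.0, 62.9 and 62.4 FPKM in LD PFNA eyes, against 52.7, 55.0, 55.0 and 55.7 FPKM in LD DMSO eyes. Its DD DMSO libraries were the lowest of the 15, and its groups did not overlap within either regime. The PFNA effect on per3 was 0.84 ± 0.08 in DD and 0.22 ± 0.07 in LD, with an interaction of 0.62 ± 0.10 (adjusted p = 0.0246; 0.107 with all 16 libraries; called in 9 of the 15 leave-out fits, adjusted p up to 0.0653).

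**Figure D2:**
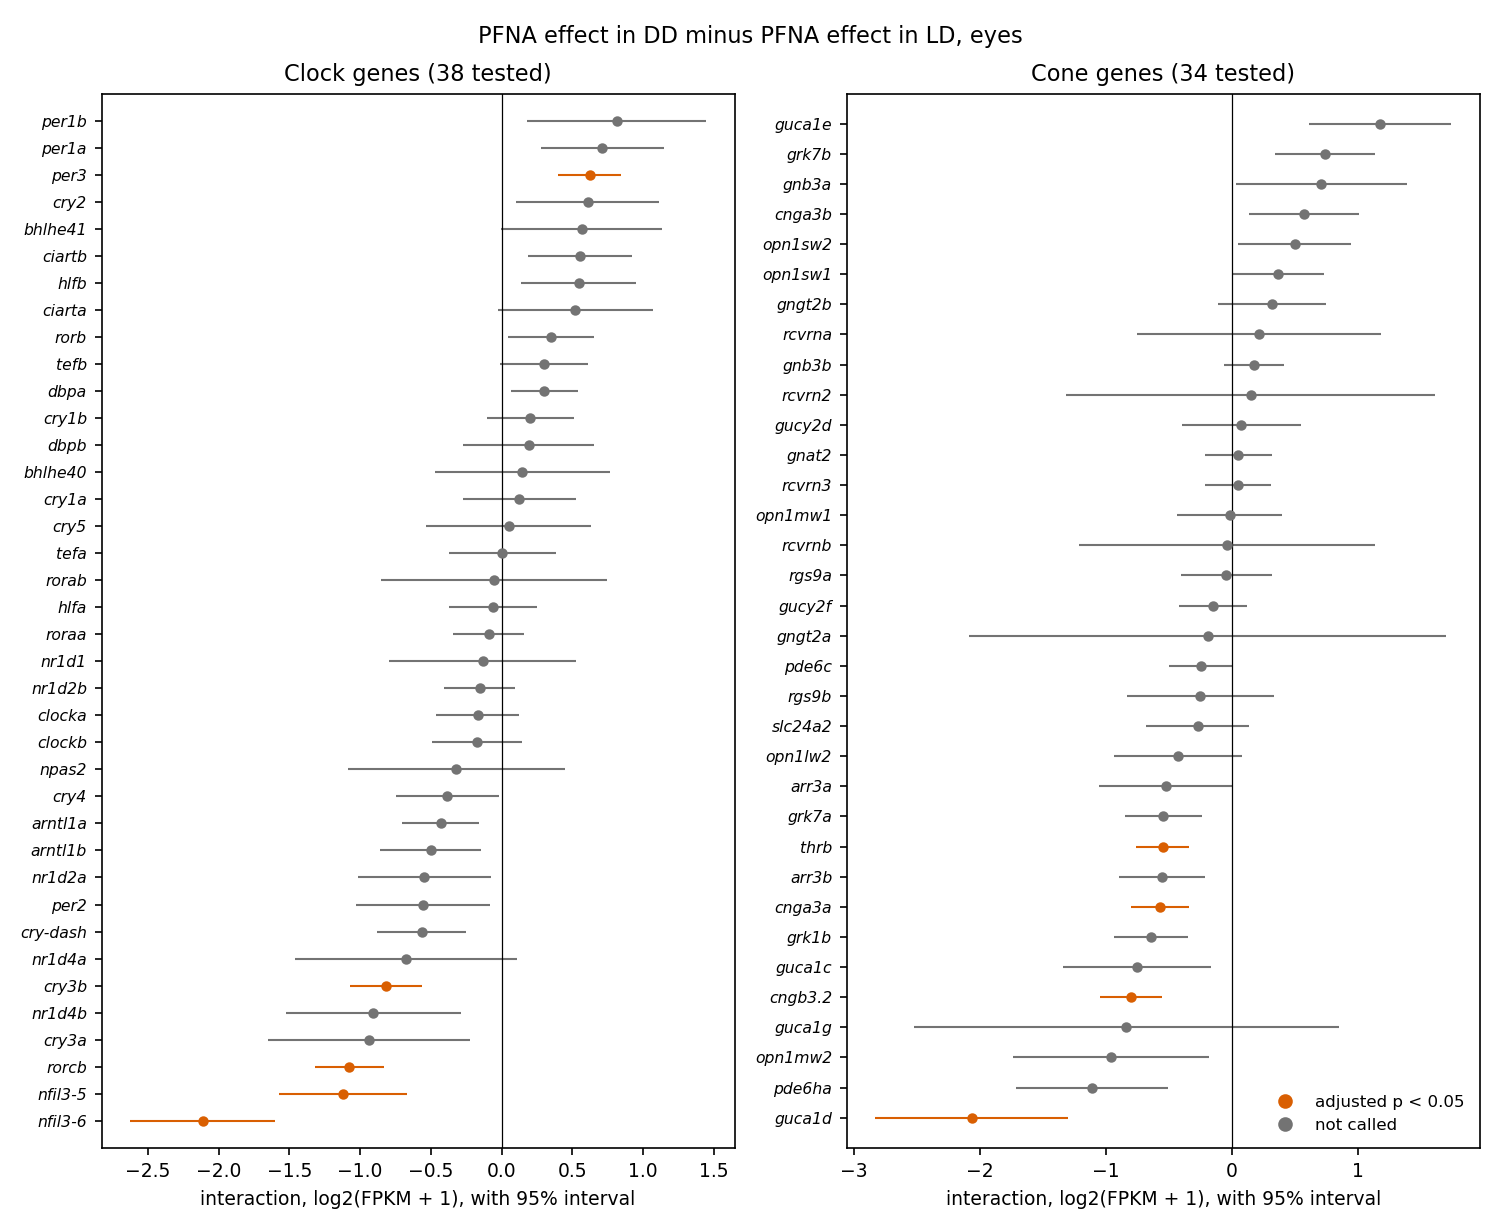
Interaction (PFNA effect in DD minus PFNA effect in LD, log2(FPKM + 1), horizontal axis) with its 95% interval for the 38 tested clock genes (left) and the 34 tested cone genes (right), sorted by value. Orange marks the called genes, per3 (0.62) on the positive side and cry3b, rorcb, nfil3-5 and nfil3-6 on the negative side at left, and cngb3.2, guca1d, thrb and cnga3a, all negative, at right; per1b, per2 and other genes whose intervals miss 0 were not called after adjustment over all genes.

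Other clock genes described here had no called interaction. PFNA raised per2, a light-induced period gene, by 1.19 ± 0.16 in DD (means 98.8 FPKM with PFNA and 42.7 FPKM with DMSO) and by 1.74 ± 0.15 in LD (means 219 and 65.5 FPKM). The interaction of per2 was -0.55 ± 0.22, with a 95% interval of -1.03 to -0.08 and an adjusted p of 0.312. For per1b the effects were 1.79 ± 0.22 in DD and 0.98 ± 0.20 in LD, and the interaction had a 95% interval of 0.18 to 1.45 ( adjusted p = 0.262). The light-induced photolyase relative cry-dash rose by 1.38 ± 0.11 in DD and 1.94 ± 0.10 in LD, with an interaction of -0.56 ± 0.15 (adjusted p = 0.12). The receptor gene nr1d1 had effects of 0.25 ± 0.23 in DD and 0.39 ± 0.21 in LD, neither called, and an interaction interval of -0.79 to 0.53. Among the D-box activators tefb had an interaction of 0.30 ± 0.15 (adjusted p = 0.425) and hlfb of 0.55 ± 0.19 (adjusted p = 0.244).

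The SOCS family genes cish, cishb and socs2 rose with PFNA in both regimes and further in DD. Of 28 tested genes of STAT signalling and inflammation, 3 were called for the interaction, against 0.148% of all genes called higher and 0.181% lower. They were cish, cishb and socs2, all positive. The cytokine-inducible inhibitor cish (chromosome 6, 41503854 to 41506749, plus strand) read 76.1, 67.9 and 87.8 FPKM in DD PFNA eyes, against 6.84, 7.35, 7.76 and 7.39 FPKM in DD DMSO eyes. Its LD values were 45.6, 55.1, 64.9 and 57.3 FPKM in LD PFNA eyes, against 12.1, 15.7, 22.6 and 14.2 FPKM in LD DMSO eyes. The PFNA groups stood above the DMSO groups in both regimes, and DD DMSO lay below LD DMSO with no overlap. The PFNA effect was 3.22 ± 0.16 in DD and 1.75 ± 0.15 in LD, with an interaction of 1.47 ± 0.22 (adjusted p = 0.0153; 0.0139 with all 16 libraries). Its paralogue cishb averaged 23.4 ± 5.92 FPKM in DD PFNA eyes and 1.16 ± 0.486 FPKM in DD DMSO eyes (SD, n = 3 and 4), and 13.0 ± 2.29 FPKM in LD PFNA eyes and 2.81 ± 0.384 FPKM in LD DMSO eyes (n = 4 each). The interaction of cishb was 1.64 ± 0.26 (adjusted p = 0.0207). Its call was lost without LD DMSO replicate 2 (adjusted p = 0.0528), LD DMSO replicate 3 (0.0501) or LD PFNA replicate 2 (0.0515).

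The growth hormone and cytokine signalling inhibitor socs2 was the third, at 234, 229 and 311 FPKM in DD PFNA eyes, against 36.2, 41.7, 44.6 and 33.3 FPKM in DD DMSO eyes. In LD it was 187, 205, 240.2 and 170.1 FPKM in LD PFNA eyes, against 55.1, 60.4, 72.5 and 61.1 FPKM in LD DMSO eyes. All PFNA libraries exceeded all DMSO libraries. The PFNA effect was 2.69 ± 0.14 in DD and 1.67 ± 0.13 in LD and the interaction 1.02 ± 0.19 (adjusted p = 0.0413), which was not called with all 16 libraries (0.107) and was called in 2 of the 15 leave-out fits (adjusted p up to 0.0906). PFNA raised 21 of the 28 listed genes in DD and 23 in LD, against 8.53% and 10.9% of all genes, and the list's median effect was 1.77 in DD and 1.54 in LD, beside -0.0004 and 0.0113 over all genes. The listed genes did not share a direction in the interaction, and their median was -0.08. At p under 0.05 unadjusted 5 were higher and 6 lower, against 5.84% and 6.49% of all genes. For socs3b, an inhibitor induced by STAT3, the interaction was 0.82 ± 0.23 (adjusted p = 0.152), whereas for the cytokine gene il1b it was -1.08 ± 0.27 (adjusted p = 0.099) and for the prostaglandin synthase ptgs2b -0.99 ± 0.24 (adjusted p = 0.0896). The stress-induced factor atf3 had effects of 3.90 ± 0.19 in DD and 2.78 ± 0.18 in LD and an interaction of 1.12 ± 0.26 (95% interval 0.56 to 1.68, adjusted p = 0.0864). The AP-1 factor fosl1a, whose DD effect of 4.40 ± 0.24 was the largest of all genes tested, had an interaction of 0.96 ± 0.33 (95% interval 0.27 to 1.66, adjusted p = 0.227).

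**Figure D3:**
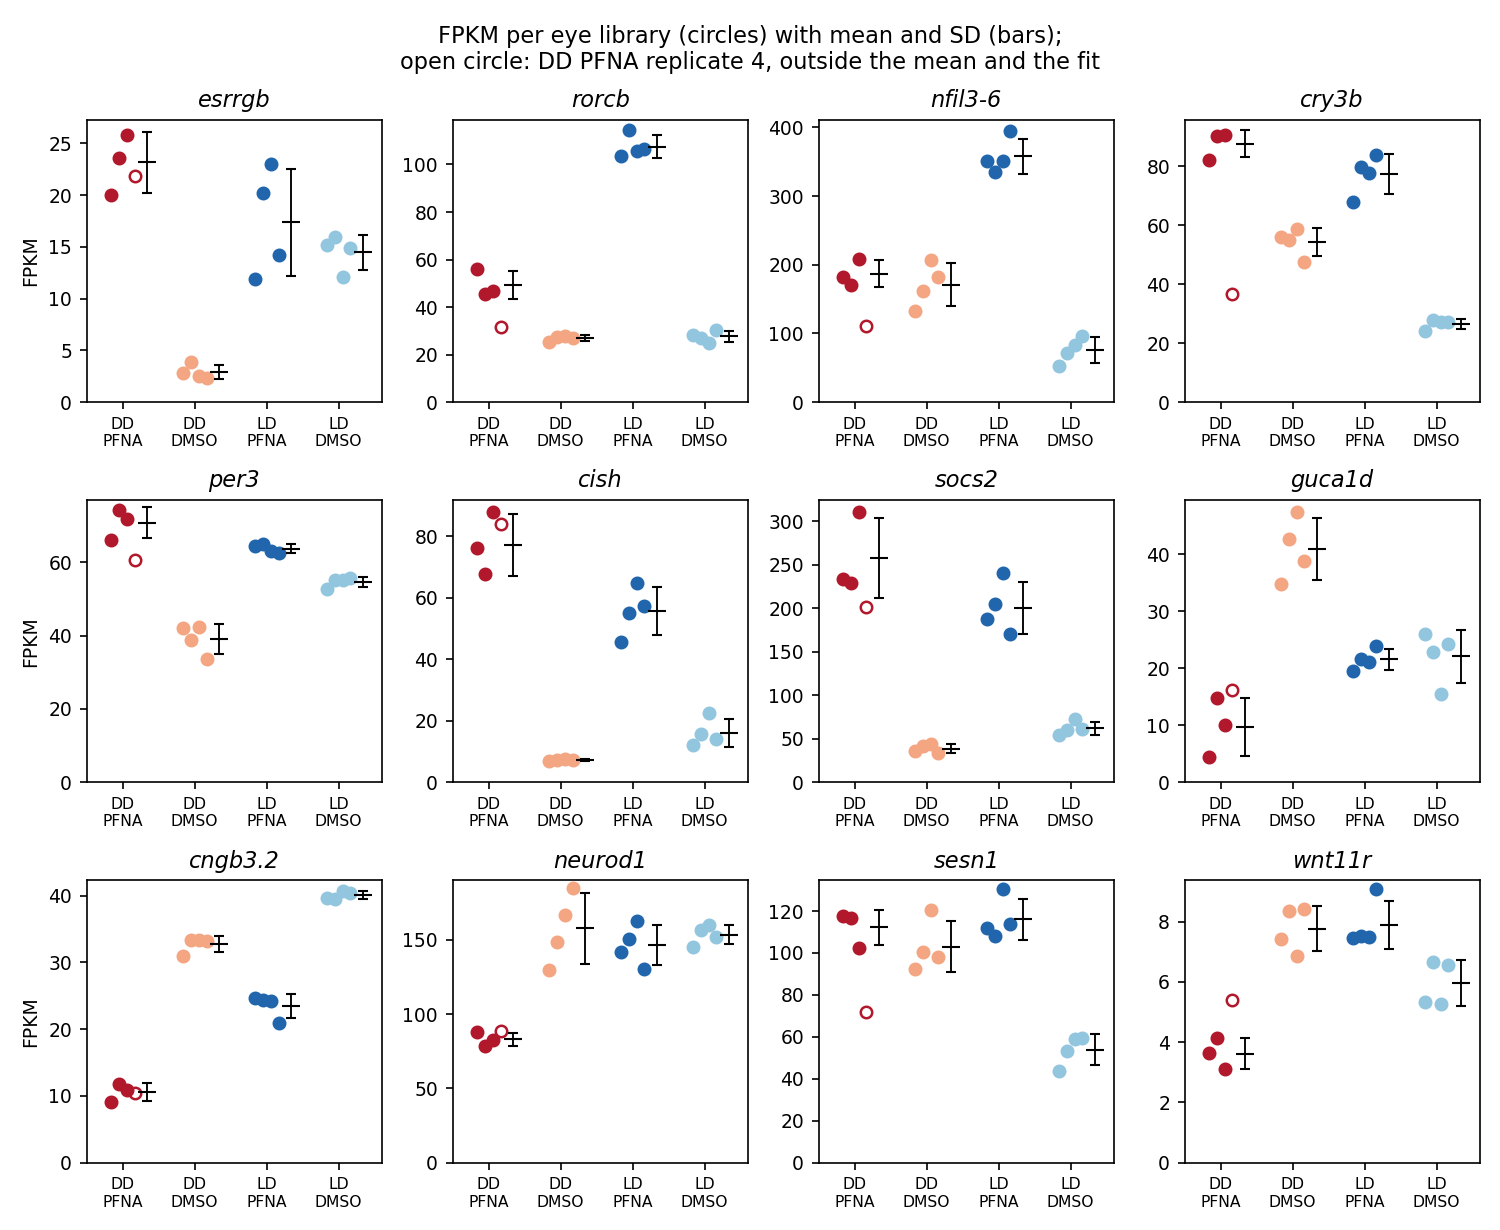
FPKM in each eye library (vertical axes, all starting at 0) for 12 genes, with the groups from left to right DD PFNA, DD DMSO, LD PFNA and LD DMSO and black bars for the mean and SD (n = 3 in DD PFNA, 4 elsewhere). The open circle is DD PFNA replicate 4, outside the mean and the fit; the DD DMSO libraries of esrrgb (2.298 to 3.83 FPKM) and the LD PFNA libraries of nfil3-6 and rorcb stand apart from the other 3 groups, and replicate 4 falls away from its group for cry3b, sesn1 and rorcb.

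The called cone genes fell with PFNA in DD by more than in LD. Of 34 tested genes of cone phototransduction and cone fate, 4 were called for the interaction, all negative, against 0.181% of all genes called lower. At p under 0.05 unadjusted 6 were higher and 10 lower, against 5.84% and 6.49% of all genes. In DD PFNA lowered 15 of the 34 and raised 4, and in LD it lowered 13 and raised 6, against 5.48% lowered and 8.53% raised in DD and 6.6% and 10.9% in LD over all genes. The list's median effect was -0.42 in DD and -0.33 in LD, and its median interaction -0.17, or -0.09 with all 16 libraries. In whole eyes, fewer cones and less RNA per cone cannot be told apart.

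The channel subunit gene cngb3.2 (chromosome 24, 31430890 to 31452923, minus strand), for the beta subunit of the cone cyclic-nucleotide-gated channel, read 9.06, 11.8 and 10.9 FPKM in DD PFNA eyes, against 31.0, 33.4, 33.4 and 33.2 FPKM in DD DMSO eyes. The LD values were 24.7, 24.4, 24.2 and 20.9 FPKM in LD PFNA eyes, against 39.7, 39.5, 40.7 and 40.3 FPKM in LD DMSO eyes. The 4 groups did not overlap, and DD PFNA replicate 4 read 10.4 FPKM, within its group. PFNA lowered cngb3.2 in both regimes, with effects of -1.55 ± 0.09 in DD and -0.75 ± 0.08 in LD and an interaction of -0.80 ± 0.12 (adjusted p = 0.0106; 0.0196 with all 16 libraries). Its partner cnga3a, the alpha subunit of the channel, is named here after its values were seen, as the fourth called gene of the list. It averaged 39.6 ± 3.40 FPKM in DD PFNA eyes and 68.1 ± 5.26 FPKM in DD DMSO eyes, and 71.2 ± 4.13 FPKM in LD PFNA eyes and 81.6 ± 4.48 FPKM in LD DMSO eyes. The effect on cnga3a was -0.77 ± 0.08 in DD (adjusted p = 2.07e-05) and -0.19 ± 0.07 in LD (adjusted p = 0.085), and the interaction -0.57 ± 0.11 (adjusted p = 0.0414; 0.0854 with all 16 libraries; called in 3 of the 15 leave-out fits, adjusted p up to 0.101).

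The largest cone interaction was that of guca1d, one of the guanylate cyclase activating proteins, which restore cyclic GMP when calcium drops (chromosome 21, 22906479 to 22910530, minus strand). Its level was 4.52, 14.7 and 10.0 FPKM in DD PFNA eyes, against 34.8, 42.7, 47.4 and 38.8 FPKM in DD DMSO eyes. Under LD it was 19.5, 21.6, 21.2 and 24.0 FPKM in LD PFNA eyes, against 26.02, 23.0, 15.5 and 24.3 FPKM in LD DMSO eyes. DD DMSO libraries were the highest of the 15 and DD PFNA libraries the lowest, while the LD groups overlapped. PFNA lowered guca1d, with an effect of -2.08 ± 0.26 in DD (adjusted p = 0.000105), its effect in LD was -0.01 ± 0.24 (adjusted p = 0.979), and the interaction was -2.07 ± 0.36 (adjusted p = 0.026). DD PFNA replicate 4 read 16.1 FPKM, with which the adjusted p was 0.0811, and the call held in 10 of the 15 leave-out fits (adjusted p up to 0.0627). Its paralogue guca1e went the other way, with means of 14.7 FPKM in DD PFNA eyes and 3.32 FPKM in DD DMSO eyes, and 13.4 FPKM in LD PFNA eyes and 8.02 FPKM in LD DMSO eyes. The guca1e interaction of 1.17 ± 0.26 was not called (adjusted p = 0.0709).

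The thyroid hormone receptor thrb, which directs red cone fate in zebrafish, averaged 36.8 ± 2.89 FPKM in DD PFNA eyes and 65.4 ± 3.07 FPKM in DD DMSO eyes, and 43.1 ± 0.743 FPKM in LD PFNA eyes and 52.1 ± 4.01 FPKM in LD DMSO eyes (SD). PFNA lowered it, with an effect of -0.82 ± 0.07 in DD and -0.26 ± 0.07 in LD, with an interaction of -0.55 ± 0.10 (adjusted p = 0.0329). That call was lost with replicate 4, which read 51.7 FPKM (adjusted p = 0.313), and held in 4 of the 15 leave-out fits (adjusted p up to 0.0829). The proneural factor neurod1, expressed in photoreceptor progenitors, read 87.7, 78.6 and 82.9 FPKM in DD PFNA eyes, against 129.9, 149, 167 and 185 FPKM in DD DMSO eyes. With the cycle it read 141, 150.4, 163 and 131 FPKM in LD PFNA eyes, against 145, 157, 160.3 and 152 FPKM in LD DMSO eyes. The DD PFNA libraries, replicate 4 included at 88.5 FPKM, lay below all others, which overlapped. PFNA lowered neurod1, with an effect of -0.91 ± 0.10 in DD (adjusted p = 4.76e-05), and its effect in LD was -0.07 ± 0.10 (adjusted p = 0.673). The interaction was -0.83 ± 0.14 (adjusted p = 0.026; 0.0467 with all 16 libraries; called in 8 of the 15 leave-out fits, adjusted p up to 0.0653). Of 41 tested genes of retinal progenitors and Müller glia only neurod1 was called, against 0.181% of all genes called lower.

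Opsins of cones and rods did not pass the test. The green cone opsin opn1mw1 averaged 1089 ± 80.4 FPKM in DD PFNA eyes and 2005 ± 144 FPKM in DD DMSO eyes, and 2003 ± 394 FPKM in LD PFNA eyes and 3623 ± 555 FPKM in LD DMSO eyes. PFNA lowered opn1mw1, with an effect of -0.88 ± 0.14 in DD and -0.86 ± 0.13 in LD, and the interval of the interaction was -0.43 to 0.40. For rho the effect was -0.12 ± 0.20 in DD (adjusted p = 0.75) and -0.64 ± 0.19 in LD (adjusted p = 0.0282), with an interaction interval of -0.07 to 1.097. The opsin kinase grk1b had an interaction of -0.64 ± 0.14 (adjusted p = 0.067) and the cone phosphodiesterase inhibitor gene pde6ha of -1.11 ± 0.28 (adjusted p = 0.109). The cone transducin gamma gene gngt2a, at 28.3 FPKM in DD PFNA eyes, 22.04 FPKM in DD DMSO eyes, 5.15 FPKM in LD PFNA eyes and 3.54 FPKM in LD DMSO eyes, was so variable that its interval ran from -2.08 to 1.696. None of 29 rod phototransduction genes was called by limma. At p under 0.05 unadjusted none was higher and 3 were lower, against 5.84% and 6.49% of all genes. A non-visual opsin outside these lists was called: opn9 read 45.7, 42.0 and 42.5 FPKM in DD PFNA eyes, against 33.3, 31.0, 37.2 and 36.8 FPKM in DD DMSO eyes. The LD values were 33.6, 36.7, 49.4 and 33.9 FPKM in LD PFNA eyes, against 52.0, 58.8, 51.9 and 51.2 FPKM in LD DMSO eyes. The LD PFNA libraries lay below the LD DMSO libraries, and the DD PFNA libraries above the DD DMSO libraries. The opn9 effect was 0.32 ± 0.12 in DD (adjusted p = 0.0786) and -0.48 ± 0.11 in LD (adjusted p = 0.00588), and the interaction was 0.81 ± 0.16 (adjusted p = 0.0459; 0.0565 with all 16 libraries; called in 2 of the 15 leave-out fits, adjusted p up to 0.105).

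Among the 13 genes that PFNA raised in LD with no called effect in DD was the p53 target sesn1, a sestrin that restrains growth signalling (chromosome 20, 32152355 to 32231157, plus strand). It read 118, 117 and 102 FPKM in DD PFNA eyes, against 92.6, 100.6, 120.4 and 98.1 FPKM in DD DMSO eyes. In LD it read 112, 108, 130.4 and 114 FPKM in LD PFNA eyes, against 43.8, 53.2, 59.18 and 59.3 FPKM in LD DMSO eyes. The 4 LD DMSO libraries lay below all others, and the other 3 groups overlapped. PFNA had an effect of 0.13 ± 0.11 in DD (adjusted p = 0.517) and 1.098 ± 0.10 in LD (adjusted p = 8.41e-06), and the interaction was -0.97 ± 0.15 (adjusted p = 0.0196). Without LD DMSO replicate 2 the adjusted p was 0.0528, and sesn1 overlaps 2 annotated genes on the other strand, armc2 among them. It was the only called gene of 37 tested p53 targets, against 0.181% of all genes called lower. PFNA raised 11 of the 37 in DD and 17 in LD, against 8.53% and 10.9% of all genes, and lowered 1 in each regime. The list's median effects were 0.24 in DD and 0.37 in LD.

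The O-GlcNAc hydrolase gene oga, named after its values were seen because it was called in all 26 other settings, is another of the 13, and its LD PFNA libraries lay above its DD DMSO libraries. Its means were 77.2 ± 4.54 FPKM in DD PFNA eyes and 66.7 ± 2.36 FPKM in DD DMSO eyes, and 82.2 ± 0.491 FPKM in LD PFNA eyes and 43.3 ± 3.37 FPKM in LD DMSO eyes. The interaction of oga was -0.71 ± 0.09 (adjusted p = 0.00439). The cyclin-dependent kinase inhibitor cdkn1d read 131, 112 and 122 FPKM in DD PFNA eyes, against 124, 120.5, 141 and 121 FPKM in DD DMSO eyes. In LD the values were 160.1, 178, 176 and 162 FPKM in LD PFNA eyes, against 67.5, 85.5, 85.7 and 109 FPKM in LD DMSO eyes, so that LD PFNA was the highest group and LD DMSO the lowest. The cdkn1d interaction was -1.02 ± 0.16 (adjusted p = 0.0199), and it was lost without DD PFNA replicate 2 (adjusted p = 0.0569), LD DMSO replicate 2 (0.0528) or LD PFNA replicate 2 (0.0515). The Cdk5 activator cdk5r2b averaged 77.9 ± 9.29 FPKM in DD PFNA eyes and 90.6 ± 7.34 FPKM in DD DMSO eyes, and 88.9 ± 8.01 FPKM in LD PFNA eyes and 52.2 ± 7.22 FPKM in LD DMSO eyes. Its interaction was -0.98 ± 0.15 (adjusted p = 0.019; 0.0867 with all 16 libraries; 0.0528 without LD DMSO replicate 2). For fam169aa the LD PFNA libraries read 32.9, 28.8, 36.0 and 34.4 FPKM, against 14.2, 16.3, 18.8 and 18.5 FPKM in the LD DMSO libraries, which lay below every DD library as well. The fam169aa interaction was -1.27 ± 0.22 (adjusted p = 0.026; called in 8 of the 15 leave-out fits, adjusted p up to 0.0689).

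PFNA acted in opposite directions on 6 called genes, among them wnt11r, a ligand of the non-canonical Wnt pathway (chromosome 10, 32104305 to 32123204, plus strand). It read 3.63, 4.12 and 3.11 FPKM in DD PFNA eyes, against 7.41, 8.35, 6.87 and 8.41 FPKM in DD DMSO eyes. In LD it read 7.47, 7.54, 7.48 and 9.08 FPKM in LD PFNA eyes, against 5.32, 6.66, 5.27 and 6.56 FPKM in LD DMSO eyes. PFNA and DMSO libraries did not overlap in either regime, and DD PFNA was the lowest group. PFNA lowered wnt11r, with an effect of -0.92 ± 0.12 in DD (adjusted p = 0.000158) and raised it by 0.36 ± 0.11 in LD (adjusted p = 0.0421), with an interaction of -1.28 ± 0.17 (adjusted p = 0.00439; 0.0258 with all 16 libraries, replicate 4 at 5.39 FPKM). The peptide hormone gene adm2b, of the adrenomedullin family, read 3.16, 1.77 and 2.71 FPKM in DD PFNA eyes, against 5.30, 5.64, 6.12 and 4.59 FPKM in DD DMSO eyes. Under the cycle the values were 3.18, 2.86, 2.62 and 3.76 FPKM in LD PFNA eyes, against 1.99, 0.405, 0.551 and 1.99 FPKM in LD DMSO eyes. These levels rest on at most 58 fragments per library, and the interaction of -1.83 ± 0.35 (adjusted p = 0.0414) was lost with all 16 libraries (0.066) and called in 3 of the 15 leave-out fits (adjusted p up to 0.0973).

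Other genes fell in DD with no called effect in LD. The calcium-activated chloride channel gene ano2b read 7.79, 11.2 and 9.06 FPKM in DD PFNA eyes, against 19.1, 22.2, 18.2 and 17.98 FPKM in DD DMSO eyes. In LD it read 11.4, 11.5, 9.09 and 16.4 FPKM in LD PFNA eyes, against 9.32, 8.32, 9.43 and 8.77 FPKM in LD DMSO eyes. DD DMSO was the highest group, above all other libraries, and DD PFNA overlapped both LD groups. The effect on ano2b was -0.98 ± 0.16 in DD and 0.37 ± 0.14 in LD, and the interaction -1.35 ± 0.21 (adjusted p = 0.019; 0.0196 with all 16 libraries; 0.0528 without LD DMSO replicate 2). An annotated gene lies on the other strand within ano2b, and reads of such pairs cannot be told apart where the preparation of strands is not stated. The calcium-channel regulator gene cracr2ab averaged 1.82 ± 0.190 FPKM in DD PFNA eyes and 4.46 ± 0.823 FPKM in DD DMSO eyes, and 3.59 ± 0.371 FPKM in LD PFNA eyes and 3.22 ± 0.475 FPKM in LD DMSO eyes. The cracr2ab interaction was -1.06 ± 0.20 (adjusted p = 0.0407), called in 3 of the 15 leave-out fits (adjusted p up to 0.0956). Like ano2b, cracr2ab overlaps an annotated gene on the other strand, prmt8b.

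Genes that rose in DD with no called effect in LD included adam8b, a membrane metalloprotease. It read 6.31, 8.58 and 14.1 FPKM in DD PFNA eyes, against 1.495, 1.002, 0.616 and 1.07 FPKM in DD DMSO eyes. Under LD the values were 3.90, 1.49, 1.81 and 2.51 FPKM in LD PFNA eyes, against 1.45, 1.13, 1.49 and 1.27 FPKM in LD DMSO eyes. DD PFNA libraries lay above all others, and replicate 4 was higher still at 20.4 FPKM. The effect of PFNA was 2.33 ± 0.26 in DD and 0.51 ± 0.24 in LD (adjusted p = 0.164), and the interaction 1.83 ± 0.35 (adjusted p = 0.0414; 0.0565 with all 16 libraries; called in 3 of the 15 leave-out fits, adjusted p up to 0.0931). The gene osgn1, annotated in the table under that symbol, read 15.3, 17.2 and 24.6 FPKM in DD PFNA eyes, against 4.98, 5.4995, 6.47 and 8.27 FPKM in DD DMSO eyes, which made up its low group. The LD libraries read 19.7, 20.9, 16.2 and 20.4 FPKM with PFNA and 15.02, 17.6, 16.2 and 14.3 FPKM with DMSO, which overlapped, and the osgn1 interaction was 1.18 ± 0.23 (adjusted p = 0.0414; called in 2 of the 15 leave-out fits, adjusted p up to 0.101). The poly(A) polymerase gene TENT5A also had its low group in DD DMSO, with means of 27.1 ± 1.45 FPKM in DD PFNA and 13.2 ± 1.72 FPKM in DD DMSO, and 27.9 ± 4.76 FPKM in LD PFNA and 29.0 ± 2.90 FPKM in LD DMSO. Replicate 4 read 8.80 FPKM, below the DD DMSO libraries, and the TENT5A interaction of 1.05 ± 0.17 (adjusted p = 0.022) was 0.67 (adjusted p = 0.529) with it.

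Smaller positive interactions belonged to june, of the Jun family of AP-1 factors, to phb, the mitochondrial prohibitin, and to ssb, the La protein that binds newly made small RNAs. The june means were 9.32 ± 1.401 FPKM in DD PFNA eyes and 5.62 ± 0.259 FPKM in DD DMSO eyes, and 9.88 ± 1.21 FPKM in LD PFNA eyes and 12.7 ± 1.95 FPKM in LD DMSO eyes. Its interaction was 0.97 ± 0.17 (adjusted p = 0.0329; 0.332 with all 16 libraries; called in 6 of the 15 leave-out fits, adjusted p up to 0.0819). For phb the means were 47.0 ± 8.94 FPKM in DD PFNA eyes and 28.4 ± 2.754 FPKM in DD DMSO eyes, and 40.5 ± 3.002 FPKM in LD PFNA eyes and 44.0 ± 2.11 FPKM in LD DMSO eyes. The phb interaction was 0.82 ± 0.15 (adjusted p = 0.0407; 0.121 with all 16 libraries; called in 3 of the 15 leave-out fits, adjusted p up to 0.0956). For ssb the DD means were 19.9 ± 2.25 FPKM with PFNA and 15.9 ± 2.41 FPKM with DMSO, while PFNA lowered the level in LD to 14.5 ± 0.488 FPKM, against 21.0 ± 0.753 FPKM with DMSO. The ssb interaction was 0.81 ± 0.14 (adjusted p = 0.026; 0.0565 with all 16 libraries; called in 5 of the 15 leave-out fits, adjusted p up to 0.074). Some calls rested on few fragments. The anaphase-promoting complex subunit gene cdc26 had at most 11 fragments in a library, with 1.16, 1.96 and 1.27 FPKM in DD PFNA eyes, against 0 in all 4 DD DMSO libraries. In LD its highest values were 0.177 FPKM with PFNA and 0.155 FPKM with DMSO. It therefore passed the filter of 1 FPKM in 4 libraries only through the DD PFNA group, replicate 4 included, where it was high. The microRNA gene dre-mir-301c had at most 4 fragments in a library. It was at 0 in the 3 DD PFNA libraries, against 1.97, 0.989, 0.999 and 0 FPKM in DD DMSO eyes, and at 0.913, 4.17, 1.304 and 2.37 FPKM in LD PFNA eyes, against 0 in the 4 LD DMSO libraries. The call of cdc26 (interaction 1.28 ± 0.25, adjusted p = 0.0414) was lost at a pseudocount of 0.1 (0.22), with voom (0.153) and with the replicate block (0.0794), and held in 1 of the 15 leave-out fits. That of dre-mir-301c (-2.46 ± 0.47, adjusted p = 0.042) was lost with all 16 libraries (0.121, replicate 4 at 1.22 FPKM), with voom (0.277) and with the replicate block (0.0751), and held in 2 of the 15. Of the 2 called copies of RF00001, the 5S ribosomal RNA, neither exceeded 9 fragments.

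**Figure D4:**
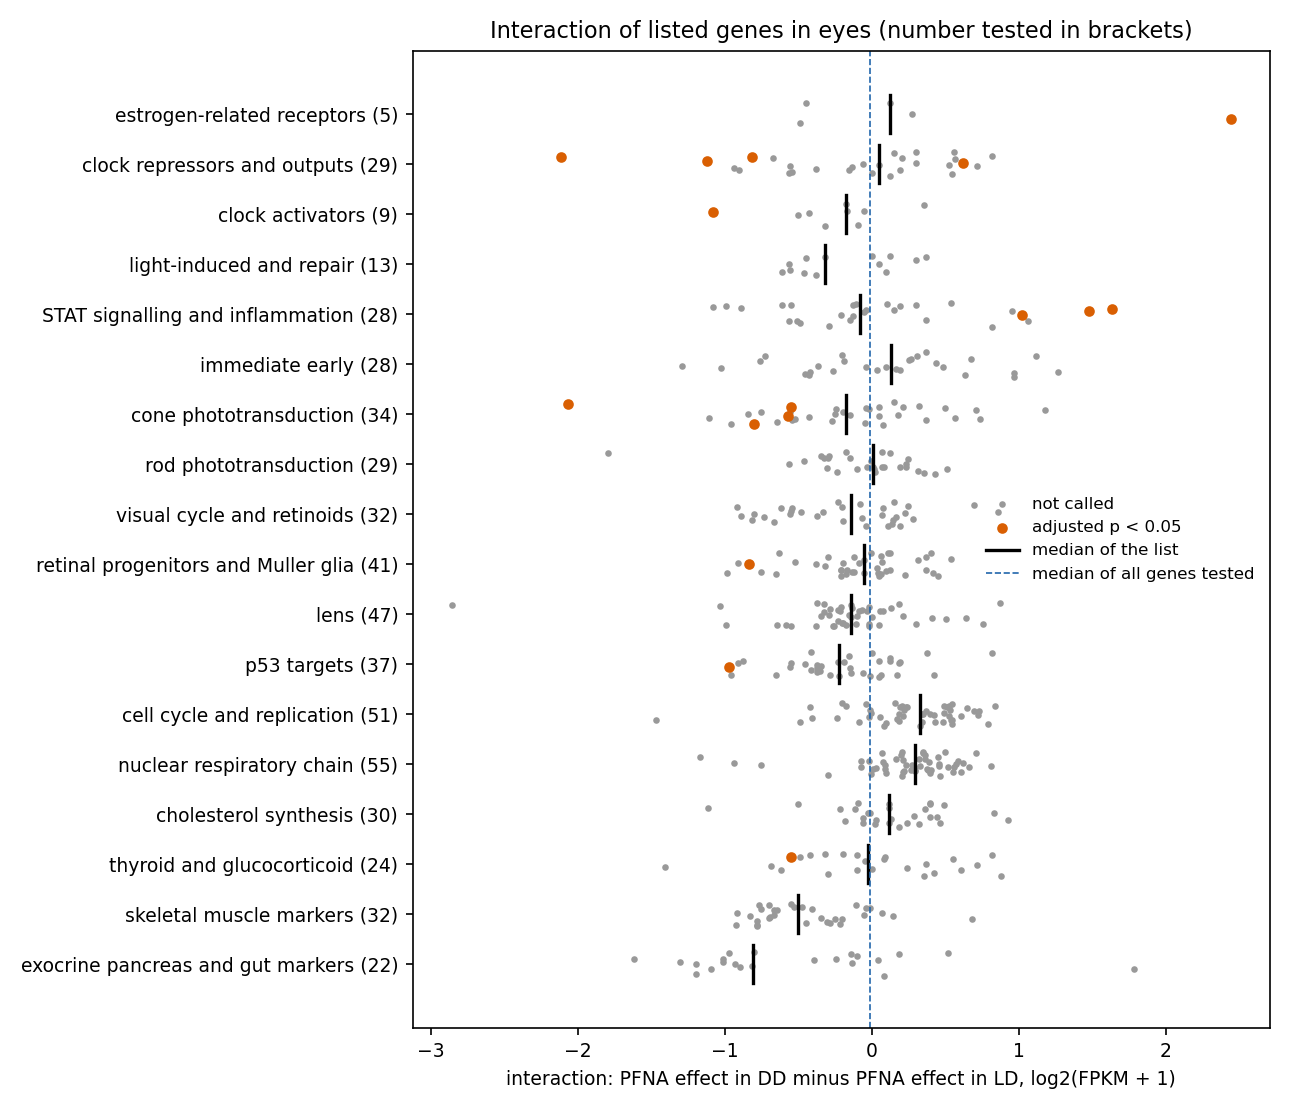
Interaction (log2(FPKM + 1), horizontal axis) of the tested members of 18 gene lists (rows, number tested in brackets), each point a gene, with black bars for list medians and a dashed line for the median of all genes tested (-0.01). Called genes are orange; they lie on the positive side for the estrogen-related receptors and STAT signalling, on the negative side for cone phototransduction, and on both sides for clock repressors, while cell cycle (median 0.33) and nuclear respiratory chain (0.29) genes lie to the right and exocrine pancreas and gut markers (-0.81) to the left with none called.

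Lists without a called gene differed in where their members lay. None of 51 cell cycle and replication genes was called by limma, but 16 were higher and none lower at p under 0.05 unadjusted, against 5.84% and 6.49% of all genes, and their median interaction was 0.33. PFNA lowered 9 of them in DD and 25 in LD, against 5.48% and 6.6% of all genes, and raised 1 in each regime, with median effects of -0.27 and -0.54. The replication helicase gene mcm5 averaged 5.65 ± 1.59 FPKM in DD PFNA eyes and 7.66 ± 0.759 FPKM in DD DMSO eyes, and 8.15 ± 0.200 FPKM in LD PFNA eyes and 20.7 ± 2.13 FPKM in LD DMSO eyes, with an interaction of 0.84 ± 0.18 (adjusted p = 0.0676). The proliferation marker mki67 fell in both regimes, with effects of -0.68 ± 0.13 in DD and -0.66 ± 0.12 in LD, and had an interaction interval of -0.40 to 0.37. Likewise none of 55 nuclear genes of the respiratory chain was called, with 17 higher and none lower at p under 0.05 unadjusted and a median of 0.29, or 0.46 with all 16 libraries. PFNA raised 6 of these in DD, against 8.53% of all genes, and in LD it raised 3 and lowered 7, against 10.9% and 6.6%. The complex I subunit gene ndufs5 averaged 40.4 FPKM in DD PFNA eyes and 36.0 FPKM in DD DMSO eyes, and 26.5 FPKM in LD PFNA eyes and 39.4 FPKM in LD DMSO eyes (interaction 0.71 ± 0.16, adjusted p = 0.0676). The 13 mitochondrially encoded genes had a median interaction of 0.02, or 0.29 with replicate 4, and mt-co1, a subunit of complex IV, had -0.02 ± 0.13 (adjusted p = 0.972).

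None of 32 visual cycle genes was called by limma, with 2 higher and 10 lower at p under 0.05 unadjusted, against 5.84% and 6.49% of all genes. PFNA raised 5 of them in DD and 13 in LD, against 8.53% and 10.9% of all genes, and lowered 2 in each regime. The retinoid-binding protein gene rbp3 averaged 492 FPKM in DD PFNA eyes and 487 FPKM in DD DMSO eyes, and 347 FPKM in LD PFNA eyes and 195 FPKM in LD DMSO eyes (interaction -0.81 ± 0.18, adjusted p = 0.0709). For the isomerase rpe65a of the pigment epithelium the interaction was -0.56 ± 0.18 (adjusted p = 0.197). Of 30 cholesterol synthesis genes, PFNA raised 17 in DD and 15 in LD, against 8.53% and 10.9% of all genes. None of the 30 was called for the interaction by limma. At p under 0.05 unadjusted 5 were higher and 1 lower, against 5.84% and 6.49% of all genes. The sterol enzyme gene msmo1 averaged 13.6 ± 0.378 FPKM in DD PFNA eyes and 4.14 ± 0.432 FPKM in DD DMSO eyes, and 14.6 ± 0.372 FPKM in LD PFNA eyes and 3.84 ± 0.485 FPKM in LD DMSO eyes. Its effects were 1.51 ± 0.10 in DD and 1.69 ± 0.09 in LD, and the interval of the interaction, -0.47 to 0.11, was among the narrower ones. The lipoprotein receptor gene ldlra had effects of 1.59 ± 0.18 in DD and 2.09 ± 0.16 in LD and an interaction interval of -1.02 to 0.02. The remaining genes fixed for description were also not called: pdk2a (-0.45 ± 0.27), dio2 (0.55 ± 0.27), serpinh1b (0.36 ± 0.24), hsp70l (1.17 ± 0.48), egr1 (0.03 ± 0.49) and npas4a (-0.76 ± 0.34), each given as the log2 interaction with its SE.

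Transcripts listed as markers of tissues other than the eye were also present. The exocrine pancreas and gut list had a median interaction of -0.81 over 22 tested genes and the skeletal muscle list of -0.50 over 32. No member of either was called by limma, against 0.148% of all genes called higher and 0.181% lower. At p under 0.05 unadjusted 1 was higher and 2 lower in the first list, and 0 higher and 1 lower in the second. Over all genes the shares were 5.84% and 6.49%. Summed over their genes, pancreas and gut transcripts ran from 107 to 342 FPKM in DD PFNA eyes, from 105 to 470.5 FPKM in DD DMSO eyes, from 48.2 to 95.6 FPKM in LD PFNA eyes and from 38.9 to 155 FPKM in LD DMSO eyes. Skeletal muscle transcripts summed to 110.0 to 268 FPKM in DD PFNA eyes, 179 to 319.8 FPKM in DD DMSO eyes, 152 to 259 FPKM in LD PFNA eyes and 112 to 279 FPKM in LD DMSO eyes. The amylase gene amy2a read 7.70, 19.9 and 3.21 FPKM in DD PFNA eyes, against 26.6, 24.2, 23.1 and 4.68 FPKM in DD DMSO eyes. In LD it stayed at or under 2.14 FPKM. The gut fatty acid binding protein gene fabp1b.1 read 0, 0.797 and 0.237 FPKM in DD PFNA eyes, against 8.51, 2.96, 14.0 and 3.31 FPKM in DD DMSO eyes, and its interaction of -1.249 ± 0.70 was not called (adjusted p = 0.506). Pancreas and gut sums overlapped between PFNA and DMSO within each regime, and muscle sums overlapped in all 4 groups. Of the defining markers, ctrb1 was at 0 in all 15 libraries, fabp2 in 13 and mylpfa in 14. Others were well above 0: over the 15 libraries the trypsin gene prss1 ran from 7.24 to 81.2 FPKM, the carboxypeptidase gene cpa5 from 0.834 to 31.7 FPKM, the actin gene actc1b from 10.5 to 55.4 FPKM and the parvalbumin gene pvalb1 from 7.11 to 40.3 FPKM. The liver fatty acid binding protein gene fabp10a reached 208 FPKM in 1 DD PFNA library and at most 11.1 FPKM in DD DMSO eyes, 7.70 FPKM in LD PFNA eyes and 15.2 FPKM in LD DMSO eyes. The part of these tissues in the called genes was not tested.

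The interaction was not shown to differ between the eye and the brain. The fit used 30 libraries of both tissues, without DD PFNA replicate 4 of the eye and replicate 3 of the brain. In it limma called 0 of 16441 genes (0.0%) for the difference of the interaction between eye and brain. Without adjustment 623 genes (3.79%) had p under 0.05, and the lowest adjusted p was 0.176. Of the 60 genes called in eyes, 48 were tested in both tissues, and 42 of these (87.5%) had the same sign in brains, against 62.4% of all genes. In the direction of the eye value, their median was 0.94 in eyes, by which they were chosen, and 0.27 in brains, beside 0.07 in brains over all genes taken the same way. In what follows, eye values and their SE are those of the fit of 15 eye libraries. Brain values, their SE and the p-values of the difference are those of the fit of 30 libraries, so the SE of the tissues are not like for like. For rorcb the interaction was -1.08 ± 0.11 in eyes and -1.11 ± 0.20 in brains, and for per3 it was 0.62 ± 0.10 in eyes and 0.65 ± 0.10 in brains. For cish it was 1.47 ± 0.22 in eyes and -0.54 ± 0.29 in brains (unadjusted p of the difference = 3.7e-05). For nfil3-6 it was -2.11 ± 0.24 in eyes and -0.64 ± 0.27 in brains (unadjusted p of the difference = 0.00064). For fam169aa it was -1.27 ± 0.22 in eyes and -0.03 ± 0.22 in brains (0.00061). Of the 48 genes, chosen on their eye values, 24 had p under 0.05 unadjusted for the difference, against 3.79% of all genes. Whether eye and brain libraries of the same number came from the same embryos is not given in the sources used here.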

How the data were processed

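RNA of 16 eye libraries was analysed from 1 deposited table of 32520 genes, with FPKM values that the authors computed. Per the submitters' processing notes, HISAT2 2.0.5 and featureCounts 1.5.0-p3 were used, and a genome build is not given in the sources used here. Per the labels' protocols libraries could be prepared as directional or not, with no word on which applied. Overlapping and antisense genes are therefore uncertain. Closely related genes (cish and cishb, nfil3-5 and nfil3-6) may be uncertain for a separate reason, if their sequences are alike enough to share reads. Their sequences were not compared. The fragments behind each value were recovered from the deposited FPKM and the gene lengths, and 100% of values came out whole within 0.05. Another 2 columns, named for groups rather than libraries, were not used.

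Genes of at least 1 FPKM in 4 or more of the 16 libraries entered a limma 3.58.1 fit on log2(FPKM + 1) in R 4.3.3, with 1 mean per group and trended eBayes. Fold changes on this scale are smaller than ratios of FPKM for genes near 1 FPKM. Tests were two-sided, adjusted by the Benjamini-Hochberg method over all genes tested and called under 0.05, and intervals are at 95%. The fit left out DD PFNA replicate 4. The fit was tried on simulated data with independent normal spread and no other effects. It called 71 of 100 genes given a 2-fold interaction and 96 of 100 given a 4-fold one, with 6 false calls. The simulated interactions were given only to genes of higher mean FPKM, so calls resting on few fragments were not covered. For eye against brain, 30 libraries of both tissues were fitted together.

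The comparison, the 35 gene lists (1285 entries, of which 1219 matched) and the tests were chosen with earlier results of these data known. The text names the 12 most positive and 12 most negative called genes with a plain symbol and a group mean of at least 1 FPKM, up to 3 called genes per list, and a fixed set of 26 genes. Also named, after their values were seen, are cnga3a, oga, esrra, arntl1a, arntl1b, clocka, tefb, hlfb, il1b, ptgs2b, guca1e, grk1b, pde6ha, ndufs5, rbp3, rpe65a, the cell type markers, the genes called in all settings and those of the closing section. Other settings were all 16 libraries, other scalings, filters, weights and a pseudocount of 0.1, and leaving out each library. Fits with voom on all 16 libraries and without mitochondrially encoded genes were added after seeing the data. No sequences are shown, and the table's coordinates are those of its annotation.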

Additional observations from a re-analysis of the deposited data

Results flagged for a closer look

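In the fit of 15 libraries limma called the interaction, given on the log2 scale, for each of the following genes. Of these genes esrrgb, nfil3-6, rorcb, cish, cngb3.2 and wnt11r were also called in all 26 other settings, and the rest were not. The calls of cdc26 and dre-mir-301c rested on few fragments, and cdc26 passed the filter only through the DD PFNA group, where it was high. The interaction was negative for dre-mir-301c (-2.46), nfil3-6 (-2.11), guca1d (-2.07), adm2b (-1.83), ano2b (-1.35), wnt11r (-1.28), fam169aa (-1.27), nfil3-5 (-1.12), rorcb (-1.08), cracr2ab (-1.06), cdkn1d (-1.02), cdk5r2b (-0.98), sesn1 (-0.97), neurod1 (-0.83), cry3b (-0.82), cngb3.2 (-0.80) and thrb (-0.55). It was positive for esrrgb (2.44), adam8b (1.83), cishb (1.64), cish (1.47), cdc26 (1.28), osgn1 (1.18), TENT5A (1.05), socs2 (1.02), june (0.97), phb (0.82), ssb (0.81), opn9 (0.81) and per3 (0.62).

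Single libraries lay far from the other 3 of their group in 24 of 224 groups of 4 examined, where chance gives about 1 in 20. DD PFNA replicate 4 was high for mt-co1 (8022 FPKM), dre-mir-301c (1.22 FPKM) and serpinh1b (1.03 FPKM) and low for cry3b (36.7 FPKM) and TENT5A (8.80 FPKM). Among the DD DMSO libraries, replicate 1 was high for june (6.003 FPKM) and low for cngb3.2 (31.0 FPKM), replicate 3 was high for cdkn1d (141 FPKM), and replicate 4 was low for ldlra (5.23 FPKM), amy2a (4.68 FPKM) and fragments (9.39 M). In LD PFNA, replicate 2 was high for mki67 (16.5 FPKM), replicate 3 was high for fabp1b.1 (1.08 FPKM) and low for serpinh1b (0.977 FPKM), and replicate 4 was high for wnt11r (9.08 FPKM), cracr2ab (4.14 FPKM) and cdc26 (0.177 FPKM) and low for cngb3.2 (20.9 FPKM). In LD DMSO, replicate 1 was low for cry3b (24.2 FPKM), replicate 2 was high for opn9 (58.8 FPKM), opn1mw1 (4448 FPKM), amy2a (2.14 FPKM) and fragments (15.7 M), and replicate 3 was high for cdc26 (0.155 FPKM).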

How the results depend on the processing

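The interaction called 60 genes in the fit reported, 25 with all 16 libraries (24 of them among the 60), 100 after quantile normalization, 105 with voom on the recovered fragments (51 of the 60), 264 with the mitochondrial share as a covariate (55 of the 60) and 25 with voom on all 16 libraries, which was chosen after seeing the data. Leaving out 1 library gave 13 (without LD DMSO replicate 2) to 72 (without DD DMSO replicate 4). The PFNA effect in LD called 3192 genes, or 1956 with all 16 libraries. The PFNA effect in DD stayed within 1.5 times its 2549 in every setting run. The eye minus brain difference called 0 genes by limma in every setting run, with 479 (all 32 libraries) to 668 (replicate block) at p under 0.05 unadjusted in the settings that kept every library of the fit. With the replicate number as a block the interaction called 46 genes, 31 of them among the 60. Pairing by number was not evident, with 21 same-numbered pairs correlating at -0.03 to 0.07 (median 0.02). The 63 pairs of unlike number correlated at -0.10 to 0.10 (median -0.003). The labels do not say whether replicates share a clutch, so these correlations cannot exclude a pairing. For the 53 genes named by rule, of which 30 were called in the fit reported, 1117 values kept their side of the threshold. Genes called in neither of the fits compared are among these 1117. Another 257 values, all of called genes, were no longer called, and 3 became called. A change of sign was counted only where a gene was called in either fit, and 0 were found. The cause of these shifts was not tested. With 3 or 4 libraries per group and the spread between them, a typical 95% interval, not adjusted for the number of genes, spans 0.51 to either side on the log2 scale. A call needed an adjusted p under 0.05, which is stricter. Differences between regimes that were smaller than 0.51 were therefore mostly not detectable, and larger ones could also go uncalled.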

Other observations

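Further called genes were chosen for description after their values were seen. Ceramidase acer2, the nuclear receptor corepressor gene nrip1a and the ephrin gene efna1b rose in LD with no called effect in DD. The means of acer2 were 31.4 ± 3.84 FPKM in DD PFNA eyes and 27.5 ± 2.18 FPKM in DD DMSO eyes, and 28.9 ± 2.1 FPKM in LD PFNA eyes and 14.2 ± 1.91 FPKM in LD DMSO eyes (SD), with an interaction of -0.80 ± 0.15 (adjusted p = 0.0407). For nrip1a the interaction was -0.68 ± 0.12 (adjusted p = 0.0272) and for efna1b -0.56 ± 0.11 (adjusted p = 0.0414). In each of these the LD DMSO libraries lay below all others of the 15, and nrip1a overlaps annotated genes on the other strand. The sulfate donor synthase papss1 had the reverse order, since PFNA lowered it in LD to 8.47 ± 0.973 FPKM, against 13.5 ± 0.939 FPKM with DMSO, and LD DMSO lay above all other libraries. Its interaction was 0.71 ± 0.14 (adjusted p = 0.0459). The pyrimidine synthesis gene cad moved in opposite directions, with effects of 0.33 ± 0.09 in DD and -0.34 ± 0.08 in LD and an interaction of 0.66 ± 0.12 (adjusted p = 0.0411). With all 16 libraries none of these 5 genes was called (adjusted p = 0.132 for acer2, 0.107 for nrip1a, 0.286 for efna1b, 0.252 for papss1 and 0.311 for cad).

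Alpha-arrestin genes, which control nutrient transporters at the membrane, rose with PFNA for 2 of 7 tested in DD and 5 of 7 in LD, against 8.53% and 10.9% of all genes. None of the 7 was called for the interaction by limma. At p under 0.05 unadjusted 0 were higher and 3 lower, against 5.84% and 6.49% of all genes. For arrdc3b the means were 87.0 FPKM in DD PFNA eyes and 42.1 FPKM in DD DMSO eyes, and 74.6 FPKM in LD PFNA eyes and 20.2 FPKM in LD DMSO eyes, with an interaction of -0.81 ± 0.23 (adjusted p = 0.148). Among 13 tested light-induced and repair genes, 8 rose in DD and 10 in LD, against 8.53% and 10.9% of all genes, and 1 fell in LD. None of the 13 was called for the interaction. At p under 0.05 unadjusted 1 was higher and 5 lower, against 5.84% and 6.49% of all genes. Bipolar cell markers vsx1 and cabp5a summed to 130.2 to 161 FPKM in DD PFNA eyes and 52.4 to 83.6 FPKM in DD DMSO eyes, and to 157 to 218 FPKM in LD PFNA eyes and 58.9 to 105 FPKM in LD DMSO eyes, without a called interaction.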
